A study of Mus musculus with 12 samples.

Results

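Toll-like receptors are membrane proteins that recognise microbial products and nucleic acids. The genes described here are 9 of these receptors (Tlr1, Tlr2, Tlr3, Tlr4, Tlr6, Tlr7, Tlr8, Tlr9 and Tlr13) and Unc93b1, chosen by their symbols from the 54532 genes of the deposited count table. All 10 were found and all 10 were tested, among 16164 tested genes. The RNA came from skin tumours grown from unmodified B16F10, a melanoma line of mouse that makes pigment. Cells negative for CD45 (a leukocyte protein) and CD31 (an endothelial protein) were sorted from them; the cell type label requires both, the protocol text either. The 6 Ctrl libraries came from Trex1 wt/fl-R26CreERT2-ki/wt hosts and the 6 iKO libraries from Trex1 fl/fl-R26CreERT2-ki/wt hosts, male and aged 8 to 12 weeks. Both groups carried the tamoxifen-activated Cre knocked in at Rosa26, which is not restricted to a cell type, and both received 1 mg of tamoxifen on each of 3 days from day 5 after implantation. Tumours were taken on day 14. Trex1 was therefore targeted in host cells, on 1 allele in Ctrl and on both in iKO, and left intact in the implanted cells. The labels do not tie libraries to mice, so p-values measure only the spread between libraries.

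Receptors of the cell surface bind lipids and proteins of microbes: TLR2 pairs with TLR1 or TLR6 to bind lipopeptides, and TLR4 binds lipopolysaccharide. Receptors of the endosome bind nucleic acids: TLR3 double-stranded RNA, TLR7 and TLR8 single-stranded RNA and its breakdown products, TLR9 DNA rich in unmethylated CpG, and TLR13, which mice have and humans lack, bacterial ribosomal RNA. UNC93B1 is the chaperone that carries the endosomal receptors from the endoplasmic reticulum to endolysosomes. TREX1 degrades DNA in the cytosol, a compartment that these receptors do not survey. The comparison asks how receptor RNA in the sorted tumour differs between Trex1 fl/fl and Trex1 wt/fl hosts after tamoxifen. It also asks whether the endosomal and the surface classes differ in the same way.

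In mm10, the files' build, Tlr1 (chr5:64924679-64933563) and Tlr6 (chr5:64952031-64960097) lie close together on the minus strand, as do Tlr8 (chrX:167242696-167264329) and Tlr7 (chrX:167304929-167330558). The other minus-strand genes are Tlr2 (chr3:83836272-83841767) and Tlr3 (chr8:45395665-45411080). On the plus strand lie Tlr4 (chr4:66827584-66930284), Tlr9 (chr9:106222598-106226883), Tlr13 (chrX:106143204-106160493) and Unc93b1 (chr19:3935186-3949340).

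Sequence upstream of the start site is shown for Tlr9, which had the largest fold change, for Tlr8, an X-linked endosomal receptor, for Tlr6, the least abundant surface receptor in iKO, and for Tlr3. The sequences are from RefSeq (GRCm38.p6, the assembly of the files' mm10). The set of sequences used here held windows for 7 of the 10 genes. Each was searched over 250 bases on both strands for an ISRE-like motif (GAAA, any 2 bases, GAAA, the core of an interferon-stimulated response element), an ETS-IRF composite (GGAA, any 2 bases, GAAA), a GAS-like motif (TTCNNNGAA, bound by STATs), an NF-kB-like motif (GGG, any 2 bases, TTTCC) and a PU.1-like motif (GAGGAAGT). Capitals mark a match to any of these. Bases in annotated exons were left out, which shortens Tlr3, whose window, like that of Tlr6, lies within the gene.
Tlr9, plus strand, chr9:106222348-106222597: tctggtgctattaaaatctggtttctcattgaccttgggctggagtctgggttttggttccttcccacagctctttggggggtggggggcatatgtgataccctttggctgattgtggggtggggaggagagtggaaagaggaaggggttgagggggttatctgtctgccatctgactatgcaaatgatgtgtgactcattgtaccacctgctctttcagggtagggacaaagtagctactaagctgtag
Tlr8, minus strand, chrX:167264330-167264579: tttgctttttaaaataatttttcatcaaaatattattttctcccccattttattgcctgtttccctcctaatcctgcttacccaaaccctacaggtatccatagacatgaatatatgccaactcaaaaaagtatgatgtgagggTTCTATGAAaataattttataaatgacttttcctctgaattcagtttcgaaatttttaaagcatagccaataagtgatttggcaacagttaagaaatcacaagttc
Tlr6, minus strand, chr5:64959167-64959416: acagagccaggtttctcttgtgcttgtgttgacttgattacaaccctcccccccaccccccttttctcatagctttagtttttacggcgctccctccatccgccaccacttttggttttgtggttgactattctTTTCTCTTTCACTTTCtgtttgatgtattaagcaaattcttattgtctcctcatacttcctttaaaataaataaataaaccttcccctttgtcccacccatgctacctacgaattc
Tlr3, minus strand, chr8:45410381-45410452: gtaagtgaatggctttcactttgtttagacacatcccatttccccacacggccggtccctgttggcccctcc

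The Tlr6 window held a pair of overlapping ISRE-like matches on the opposite strand (positions -116 to -107 and -110 to -101 from the start site), a motif found in 2.98% of 32851 windows of the same length. It belongs to the inner of the 2 start sites of Tlr6 in the table. Tlr8 held TTCTATGAA, a GAS-like match, which 7.02% of windows had. Tlr3 held GGGAGTTTCC at -211 to -202, in the exonic part not printed, an NF-kB-like match, which 1.41% of windows had. Tlr1 held a PU.1-like match (2.44% of windows) and, at its other start site, the GAS-like TTCATCGAA. No match to these letters was found in the windows of Tlr2, Tlr9 or Tlr13, and none of the 7 genes held the ETS-IRF composite (2.30% of windows).

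RNA was higher in iKO for 9 of the 10 genes, Unc93b1 among them (edgeR's quasi-likelihood test, Benjamini-Hochberg adjusted over all tested genes, threshold 0.05). None was lower. Over all tested genes 25.0% were higher and 21.4% lower. All 5 endosomal receptors rose, with log2 fold changes from 1.02 to 8.43 and a median of 5.04. Of the 4 surface receptors 3 rose, with a range over the 4 of 0.20 to 3.65 and a median of 3.41. Without Ctrl 5 the class medians were 7.18 and 3.83. The median over all tested genes was 0.02 with all libraries. The libraries of the 2 groups did not overlap, with iKO higher, for all 5 endosomal and 2 of the 4 surface receptors, against 11.8% of tested genes. Tlr9 had 10 or more counts in 1 Ctrl library, Tlr8 in 2, Tlr6 in 3, and Tlr7 and Tlr13 in 4, whereas all 10 genes had this in each iKO library. Tlr1 had it in 5 Ctrl libraries. For these genes the filter on low counts was met by the iKO libraries, so the counts and medians over each class are descriptions. The class difference in fold change was not tested.

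**Figure D1:**
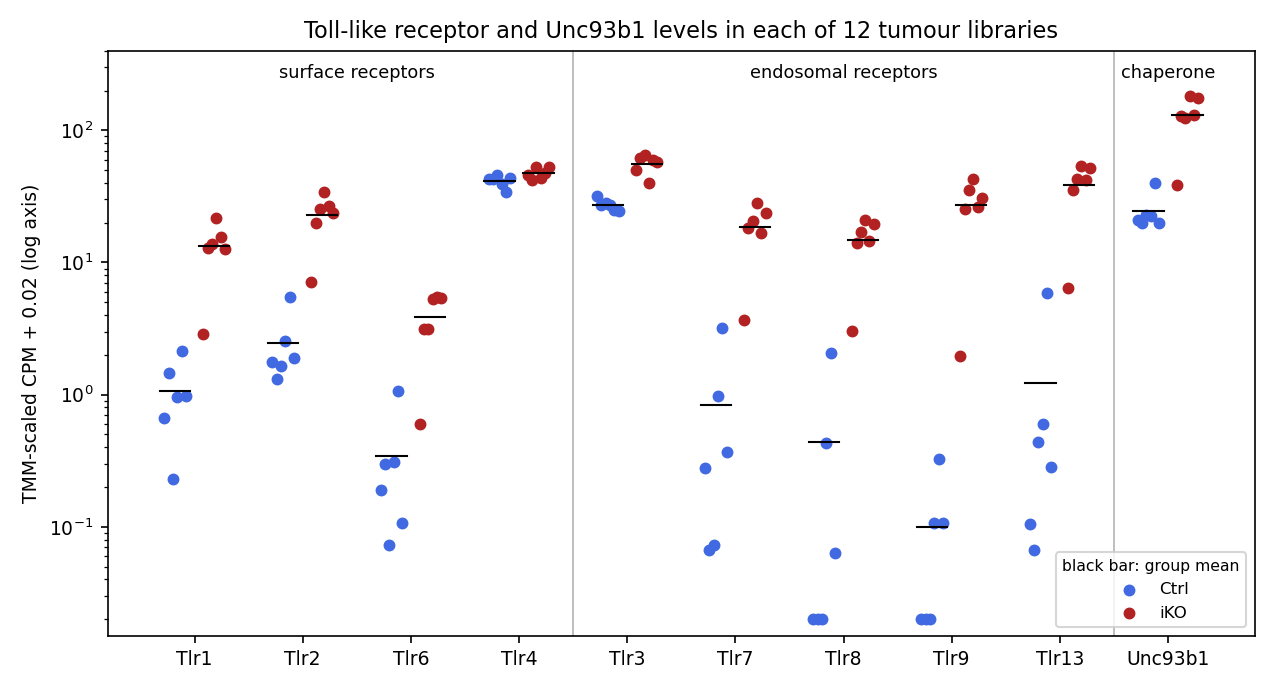
Level of each gene in each library, as CPM (counts per M counts of the library, TMM-scaled) plus 0.02 on a log axis, with Ctrl in blue, iKO in red, and black bars at the group means (n = 6 each). Tlr4 and Tlr3 lie above 24 CPM in every library, while the other receptors lie below 6 CPM in every Ctrl library.

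Libraries held 34.3 to 45.8 M counts in Ctrl and 29.8 to 35.5 M in iKO. Trex1 had 0 counts in each of the 12 libraries, and all of its exon bases lie within Atrip exons, so the genotype could not be checked from it. RNA of the sorted-out cells was present and moved with the groups. Ptprc, which encodes CD45, ranged from 0.158 to 15.6 CPM in Ctrl (median 0.542) and from 17.4 to 345 CPM in iKO (median 198). Ctrl 5 held the highest Ctrl value and iKO 1 the lowest iKO value, so these 2 libraries stand apart from the rest of their groups. A leukocyte score, the mean log2 CPM of 10 leukocyte genes, was 4.41 in Ctrl 5 and 0.57 to 2.02 in the other Ctrl libraries, and 4.01 in iKO 1 and 6.60 to 7.39 in the other iKO libraries. Xist, the RNA of the inactive X chromosome, was at 219 CPM in iKO 2, 117 CPM in iKO 3, 8.39 CPM in iKO 4 and 1.18 CPM in iKO 5, although the labels give male mice, and at most 0.501 CPM in the other 8 libraries. In bulk libraries more cells of a type and more RNA per cell cannot be told apart.

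Among the surface receptors, Tlr2, the shared partner of the lipopeptide receptors, ranged in Ctrl from 1.29 to 5.49 CPM (median 1.82) and in iKO from 7.14 to 34.2 CPM (median 24.4). The groups did not overlap, Ctrl 5 being the highest Ctrl library and iKO 1 the lowest iKO library. Tlr2 rose by a log2 fold change of 3.23 ± 0.44 (SE; edgeR, adjusted p = 0.000190), or 9.40-fold. Tlr1 ranged from 0.211 to 2.12 CPM in Ctrl (median 0.948) and from 2.88 to 21.6 CPM in iKO (median 13.3), again without overlap, and rose by 3.65 ± 0.55 (adjusted p = 0.000320). Tlr6, the other partner, was scarce: it ranged from 0.0527 to 1.05 CPM in Ctrl (median 0.226) and from 0.582 to 5.49 CPM in iKO (median 4.21). Its groups overlapped, because Ctrl 5 (1.05 CPM) lay above iKO 1 (0.582 CPM). Tlr6 rose by 3.58 ± 0.69 (adjusted p = 0.00131), and by 4.44 without Ctrl 5.

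Tlr4, the lipopolysaccharide receptor, was abundant in both groups. It ranged from 34.3 to 45.9 CPM in Ctrl (median 43.0) and from 41.9 to 52.8 CPM in iKO (median 46.6). Here Ctrl 5 was the lowest of all 12 libraries, and the groups overlapped. The log2 fold change of 0.20 ± 0.08 (SE) missed the threshold (edgeR, adjusted p = 0.0603). It passed with DESeq2 size factors in edgeR (0.0453), with DESeq2 (0.0350), with a filter of 1 CPM in 6 libraries (0.0346), and without Ctrl 2 (0.0459), Ctrl 3 (0.0258) or iKO 2 (0.0387). The log2 fold change was between 0.14 and 0.45 over all 22 alternatives, positive in each.

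Among the endosomal receptors, Tlr3 had the highest mean level per kilobase in both groups, although in iKO it was above Tlr13 in 4 of 6 libraries. It ranged from 24.6 to 32.1 CPM in Ctrl (median 27.2) and from 39.9 to 64.5 CPM in iKO (median 58.1), with no overlap. Ctrl 5 (25.0 CPM) and iKO 1 (50.4 CPM) were ordinary members of their groups for this gene. Tlr3 rose by 1.02 ± 0.11 (SE; edgeR, adjusted p = 1.13e-05), or 2.03-fold, and leaving out any 1 library gave 0.97 to 1.10. Of its exon bases 7.32% are shared with Gm45542 on the opposite strand, and the libraries did not keep strand. No exon base of the other 9 genes is shared with another gene.

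Tlr9, the DNA receptor, was nearly undetected in Ctrl. It had 0 counts in Ctrl 1, 2 and 3, and 3, 11 and 4 counts in Ctrl 4, 5 and 6. In iKO 1 it had 60 counts and in iKO 2 to 6 it had 793, 1256, 1255, 894 and 1039. In CPM the highest Ctrl library was at 0.303 and the lowest iKO library at 1.94, with iKO 2 to 6 between 25.3 and 42.6. Tlr9 rose by 8.43 ± 0.97 (SE; edgeR, adjusted p = 9.26e-05), the largest fold change of the 10 genes, and by 9.52 without Ctrl 5.

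The RNA receptors Tlr7, Tlr8 and Tlr13 are encoded on the X chromosome. Tlr13 ranged from 0.0467 to 5.82 CPM in Ctrl (median 0.342) and from 6.40 to 53.4 CPM in iKO (median 42.5). The groups were separated only narrowly, by Ctrl 5 and iKO 1. Tlr13 rose by 5.04 ± 1.08 (SE; edgeR, adjusted p = 0.00349), and by 7.18 without Ctrl 5. Tlr7 ranged from 0.0467 to 3.20 CPM in Ctrl (median 0.304) and from 3.62 to 28.4 CPM in iKO (median 19.4), and rose by 4.53 ± 0.96 (adjusted p = 0.00315), or by 5.84 without Ctrl 5. Tlr8 had 0 counts in Ctrl 1, 2 and 3, and 14, 74 and 2 counts in Ctrl 4, 5 and 6. Tlr8 ranged in iKO from 3.00 to 20.9 CPM, and rose by 5.20 ± 1.20 (adjusted p = 0.00514), or by 7.48 without Ctrl 5. Without iKO 2 and iKO 3, which held the most Xist RNA, but with iKO 4 and iKO 5 kept, the log2 fold changes were 5.03 for Tlr13, 4.50 for Tlr7 and 5.17 for Tlr8, each still past the threshold.

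Unc93b1, the chaperone, was abundant already in Ctrl. It ranged from 19.7 to 40.2 CPM in Ctrl (median 21.7) and from 38.7 to 181 CPM in iKO (median 130.2). Only Ctrl 5 and iKO 1 overlapped, with the Ctrl library the higher. Unc93b1 rose by 2.41 ± 0.35 (SE; edgeR, adjusted p = 0.000300), or 5.33-fold. This is larger than the fold change of Tlr3 and smaller than those of the 4 other endosomal receptors; these differences were not tested.

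Levels of different genes are compared per kilobase of the deposited gene length (CPM per kb, mean ± SD, n = 6). In Ctrl 3 genes were well above the rest: Unc93b1 at 8.57 ± 2.78, Tlr4 at 7.44 ± 0.742 and Tlr3 at 5.25 ± 0.514. The ranges of Unc93b1 and Tlr4 overlapped, and Unc93b1 was the higher in 2 of 6 libraries, with its highest level in Ctrl 5, whereas Tlr4 was above Tlr3 in 6 of 6 libraries with no overlap of ranges, and Tlr3 was likewise above Tlr2, at 0.805 ± 0.515. From Tlr2 downwards (Tlr1, Tlr13, Tlr7, Tlr8, Tlr6, Tlr9) each range overlapped that of its neighbour, and Tlr9 was last at 0.0229 ± 0.0338. In iKO Unc93b1 stood alone at 45.6 ± 17.9, above every receptor in 6 of 6 libraries. Next came Tlr3 at 10.7 ± 1.73, Tlr13 at 8.99 ± 4.00, Tlr4 at 8.53 ± 0.812, Tlr9 at 7.80 ± 3.99 and Tlr2 at 7.55 ± 2.98, and each of these ranges overlapped that of its neighbour. Tlr7, Tlr8, Tlr1 and Tlr6 followed, down to 1.03 ± 0.522 for Tlr6.

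Summed per kilobase, the surface receptors went from 8.65 ± 0.262 CPM per kb in Ctrl to 21.1 ± 5.33 in iKO, and the endosomal receptors from 5.87 ± 0.953 to 36.1 ± 11.7 (SD, n = 6). Endosomal receptors made up 36.1% to 46.0% of the receptor sum in Ctrl and 53.7% to 65.7% in iKO, and iKO 1 was the lowest iKO library. In each class 1 receptor held most of the Ctrl sum. Tlr3 was between 91.1% and 99.6% of the endosomal sum in 5 Ctrl libraries and 63.2% in Ctrl 5, against 17.0% to 72.0% in iKO. Tlr4 was between 85.5% and 93.0% of the surface sum in 5 Ctrl libraries and 69.3% in Ctrl 5, against 29.1% to 70.8% in iKO. The number of Tlr3 counts per Tlr4 count, which needs no scaling between libraries, was 0.570 to 0.748 in Ctrl and 0.910 to 1.48 in iKO, without overlap.

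**Figure D2:**
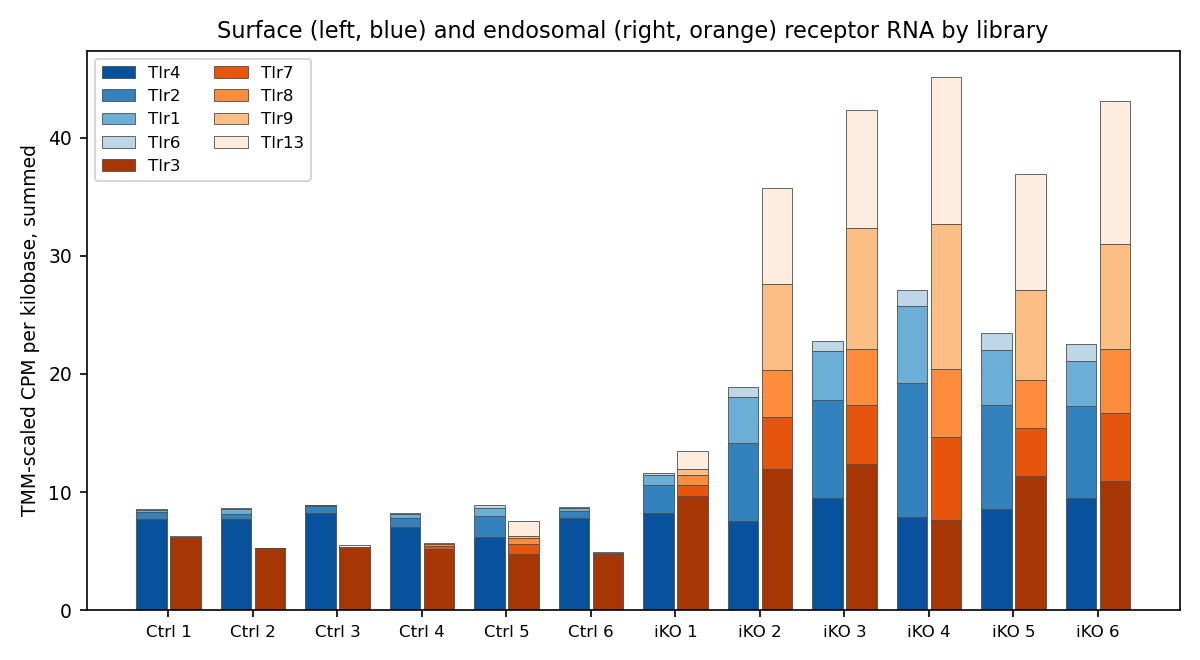
Summed receptor RNA in each library, in CPM per kilobase, with surface receptors stacked in blue at the left of each pair and endosomal receptors in orange at the right. Tlr4 and Tlr3 make up most of the Ctrl bars, and the endosomal bar exceeds the surface bar in all 6 iKO libraries and in no Ctrl library.

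The 2 receptors with the highest Ctrl levels had the smallest fold changes of their classes. Without Tlr4 the other 3 surface receptors lay between 3.23 and 3.65 on the log2 scale, and without Tlr3 the other 4 endosomal receptors lay between 4.53 and 8.43. Without Ctrl 5 these ranges were 3.67 to 4.44 and 5.84 to 9.52.

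Leukocyte RNA moved with most of these genes. Of the 10 genes of the leukocyte list 9 rose and none fell. For this and the lists that follow, the shares over all tested genes were 25.0% higher and 21.4% lower. The summed level was 298 to 492 CPM in Ctrl and 434 to 2127 CPM in iKO. Arhgdib, the gene of this list that was not called, was alone at 233 to 276 CPM in Ctrl and 221 to 263 CPM in iKO. All 12 macrophage and monocyte genes were tested and 11 rose, with sums of 17.5 to 464 CPM and 263 to 2428 CPM. Of the 8 conventional dendritic cell genes 6 were tested and 5 rose, with sums of 7.83 to 18.1 CPM and 15.9 to 163 CPM. Of the 6 genes of plasmacytoid dendritic cells, which are known for TLR7 and TLR9, 3 were tested and 2 rose. Their sums were 2.80 to 3.83 CPM and 6.62 to 14.4 CPM, and the defining marker Siglech had 2 counts in Ctrl and 174 in iKO. Of the 8 B cell genes 4 were tested and 3 rose, with sums of 0.304 to 4.66 CPM and 4.33 to 41.6 CPM, and the marker Ms4a1 had 0 counts in Ctrl and 60 in iKO. All 8 T cell genes rose, with sums of 3.72 to 8.74 CPM and 13.8 to 148 CPM. Single genes held much of some Ctrl sums. Their Ctrl means were 7.57 CPM for Zbtb46 (conventional dendritic), 2.63 CPM for Pacsin1 (plasmacytoid dendritic) and 4.59 CPM for Lck (T cell). Cd79a (B cell) and Eomes (natural killer cell) had Ctrl means of 0.590 and 0.407 CPM. Cd68 (macrophage and monocyte) had a Ctrl median of 13.5 CPM. Both tested genes of the 4 natural killer cell genes rose (0.320 to 0.938 CPM and 1.26 to 25.1 CPM), as did 3 of the 4 tested among 7 neutrophil genes (0.0527 to 6.04 CPM and 1.39 to 47.5 CPM), where Ly6g was almost absent from both groups (0 counts in Ctrl and 4 in iKO).

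Non-leukocyte markers moved less evenly. Of 8 fibroblast genes 2 rose, near the background, as 25.0% of all tested genes rose and 21.4% fell. The fibroblast sums were 2279 to 2603 CPM in Ctrl and 635 to 14737 CPM in iKO. Among iKO libraries iKO 6 was the lowest and iKO 2 the highest. In those 2 libraries Tlr3 was at 57.1 and 62.0 CPM and Tlr4 at 52.8 and 41.9 CPM. In iKO 1, iKO 3, iKO 4 and iKO 5 the fibroblast sums were 2403, 1898, 2451 and 10186.5 CPM. Tlr3 was there at 50.4, 64.5, 39.9 and 59.1 CPM, and Tlr4 at 45.7, 52.6, 43.9 and 47.5 CPM. Of 7 endothelial genes 3 rose and 1 fell (sums of 20.5 to 27.0 CPM and 20.2 to 56.6 CPM). Of 7 pigment cell genes, which mark the B16F10 cells, 6 fell and none rose, with sums of 21548 to 21937 CPM in Ctrl and 15053 to 21454 CPM in iKO. The part of these cell types in the receptor differences was not tested, and the fit with the leukocyte score given below cannot decide it.

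**Figure D3:**
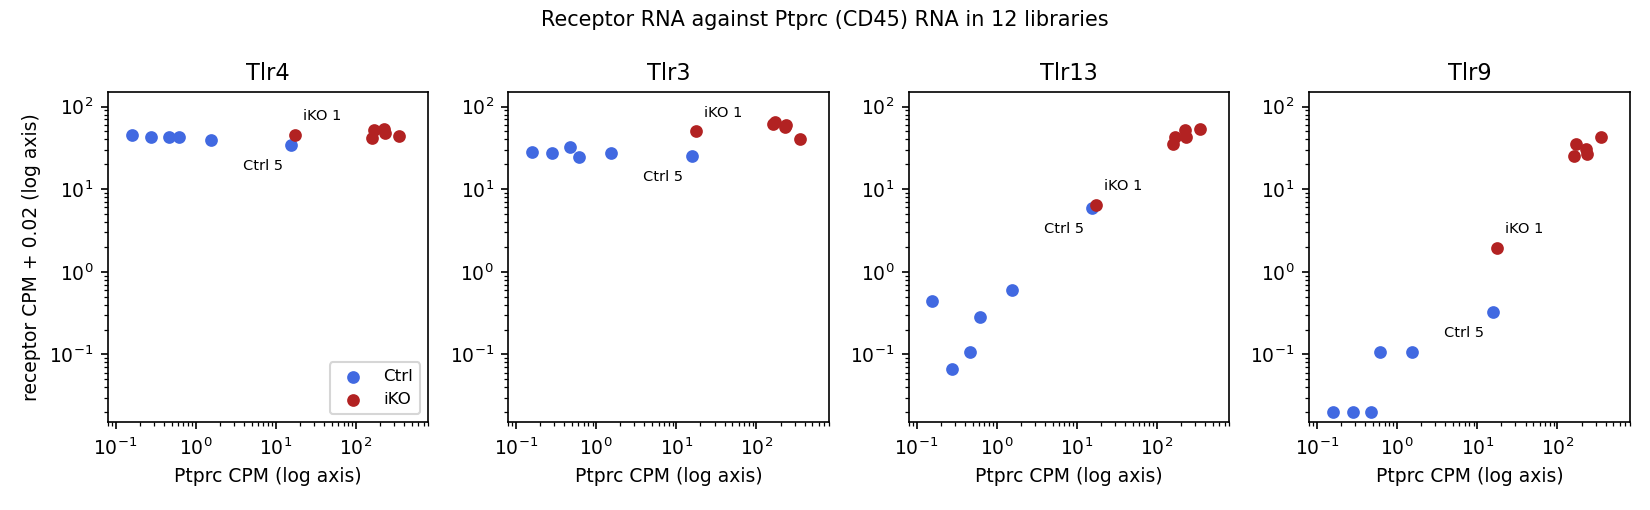
CPM plus 0.02 of 4 receptors against Ptprc (CD45) CPM, both on log axes, in the 12 libraries, with Ctrl in blue and iKO in red. Ctrl 5 and iKO 1 have nearly the same Ptprc (15.6 and 17.4 CPM) and nearly the same Tlr13 (5.82 and 6.40 CPM), but Tlr3 is 25.0 and 50.4 CPM and Tlr9 0.303 and 1.94 CPM.

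Ctrl 5 and iKO 1 allow the members to be set side by side at near-equal Ptprc, a pair chosen after its values were seen and with no replicate. The ratio of CPM in iKO 1 to that in Ctrl 5 was 1.12 for Ptprc and 1.03 for Adgre1, the macrophage gene of F4/80. The pair was not matched for all leukocyte genes. The macrophage sum was 464 CPM in Ctrl 5 and 263 CPM in iKO 1, and the neutrophil sum 6.04 and 1.39 CPM. Also lower in iKO 1 were the sums of the leukocyte list (492 and 434 CPM), conventional dendritic cells (18.1 and 15.9) and B cells (4.66 and 4.33). Higher in iKO 1 were those of T cells (8.74 and 13.8 CPM), plasmacytoid dendritic cells (3.83 and 6.62) and natural killer cells (0.938 and 1.26). The ratio was close to those of Ptprc and Adgre1 for Tlr13 (1.10), Tlr7 (1.13) and Unc93b1 (0.963). It was 1.30 for Tlr2, 1.33 for Tlr4, 1.35 for Tlr1 and 1.47 for Tlr8, and 0.555 for Tlr6, from 38 and 18 counts. For Tlr3 it was 2.02, from 905 and 1560 counts, and for Tlr9 it was 6.39, from 11 and 60 counts.

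With the leukocyte score as covariate in edgeR, 2 of the 10 genes were called higher and none lower, against 6.56% and 6.84% of all tested genes. Both were endosomal receptors. Tlr3 had a log2 fold change of 1.11 ± 0.25 (SE; edgeR, adjusted p = 0.0115), close to its value without the covariate. Tlr9 had 3.07 ± 0.68 (adjusted p = 0.0128), well under its value without the covariate. It had 10 or more counts in only 1 Ctrl library, so it passed the filter through iKO. Where the scores overlap, Tlr9 had 11 counts in Ctrl 5 and 60 in iKO 1. The calls of Tlr1 (0.94 ± 0.86, adjusted p = 0.532), Tlr2 (0.62 ± 0.27, 0.148), Tlr7 (0.33 ± 0.58, 0.769), Tlr8 (0.81 ± 0.76, 0.548), Tlr13 (0.59 ± 0.50, 0.492) and Unc93b1 (0.34 ± 0.41, 0.652) ended. The direction of Tlr6 turned, at -0.41 ± 0.67 (0.744), also without a call. Tlr4 had 0.45 ± 0.17 (0.107). Ctrl 5 and iKO 1 were the only libraries in which the score of a Ctrl library reached that of an iKO library. The score otherwise followed the groups, so this fit cannot separate group from leukocyte RNA. Calls that stayed or ended in it decide nothing on the part of leukocytes.

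**Figure D4:**
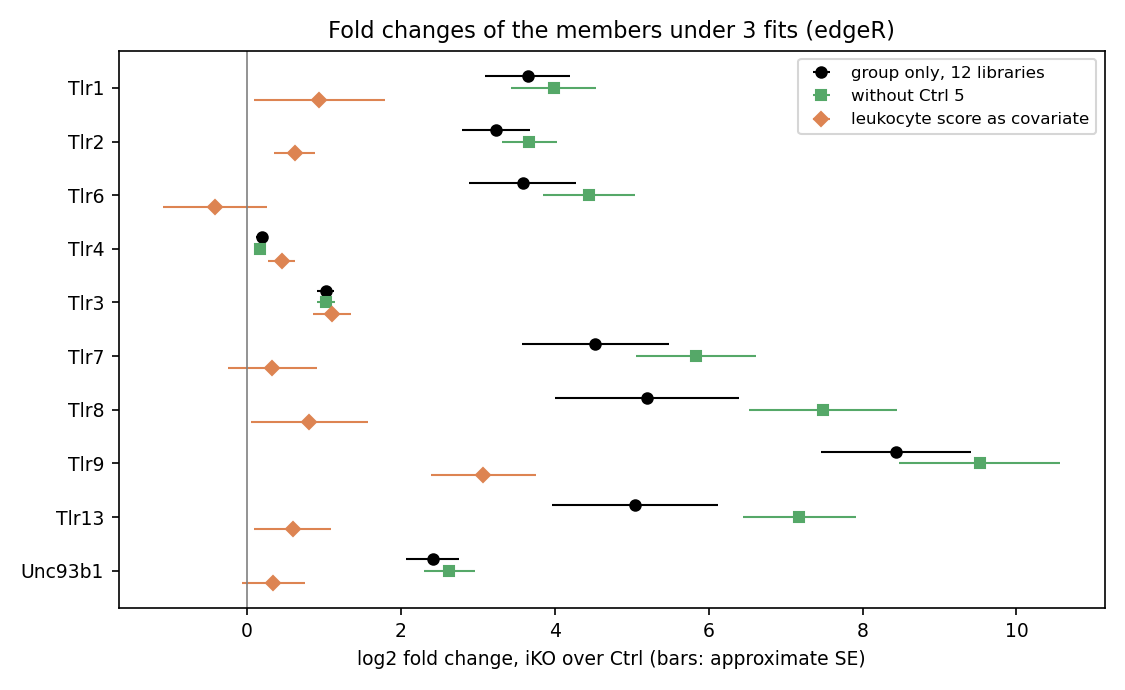
Log2 fold change of each gene with its approximate SE under 3 edgeR fits: all 12 libraries with group as the only term (black), without Ctrl 5 (green) and with the leukocyte score as covariate (orange). With the covariate Tlr3 stays near 1.11 and Tlr9 lies at 3.07, while the other 8 genes lie between -0.41 and 0.94.

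Other genes of the pathway rose more often than they fell: of 56 listed genes beside the members, 55 were tested, 35 rose and 2 fell. Over all tested genes 25.0% rose and 21.4% fell. The median of the tested pathway genes was 0.49 on the log2 scale. Among receptors outside the 10, Tlr5, the flagellin receptor of the cell surface, rose by 2.85 and Tlr12, an endosomal receptor for a parasite protein, by 1.16 (edgeR, adjusted p = 0.000223 and 0.00580). Tlr11, which was below the filter and not tested, had 2 counts in Ctrl and 278 in iKO. Of the 6 accessory proteins of surface receptors 4 rose, among them Cd180, a homologue of TLR4, by 5.44 (7.18 without Ctrl 5) and Cd36, a scavenger receptor that assists TLR2, by 3.98 (5.65 without Ctrl 5). Ly96, which encodes MD-2, the protein that holds lipopolysaccharide for TLR4, was at 8.77 ± 1.73 CPM in Ctrl and 8.25 ± 1.13 CPM in iKO (SD, n = 6; edgeR, adjusted p = 0.651).

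Genes of receptor transport and processing split. Of 10 such genes beside Unc93b1, 4 rose and 2 fell. The endolysosomal proteases Lgmn and Ctsb, which can cut endosomal receptors into their active form, rose by 2.08 and 1.36 (edgeR, adjusted p = 0.000657 and 0.000279). Hsp90b1, the chaperone GP96 that folds most Toll-like receptors, fell by 0.39 on the log2 scale (adjusted p = 0.00143), and Cnpy4, a co-chaperone, fell by 0.27 (0.0269). Cnpy4 missed the threshold when Ctrl 3 (0.0757), Ctrl 4 (0.0841), Ctrl 5 (0.0705), iKO 3 (0.0563) or iKO 6 (0.0506) was left out, and with a replicate block (0.0505). Without any 1 library the number of pathway genes that fell was between 1 and 3. Of 6 nucleases that degrade nucleic acids 4 rose, including the lysosomal enzymes Dnase2a by 0.95 and Pld3 by 0.49 (edgeR, adjusted p = 6.92e-05 and 0.000768).

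Downstream, 4 of 6 adaptors rose. Myd88, the adaptor of nearly all Toll-like receptors except TLR3, rose by 1.62, and Ticam1, which encodes TRIF, the adaptor of TLR3 and TLR4, by 0.58 (edgeR, adjusted p = 0.000124 and 0.000174). Of 14 kinases and ubiquitin ligases 10 rose and none fell, among them the kinases of interferon regulatory factors Ikbke by 1.29 and Tbk1 by 0.40 (3.47e-05 and 0.000152). Of 4 interferon regulatory factors 3 rose, including Irf7 by 3.60 and Irf8 by 3.34 (1.13e-05 and 2.74e-05). Of 7 brakes on the pathway 4 rose, including Socs1 by 2.52 and Nfkbia by 1.48 (3.93e-05 and 7.90e-05). After adjustment for the leukocyte score 4 of the 55 tested pathway genes were higher and 1 lower. The shares over all tested genes in that fit were 6.56% higher and 6.84% lower, so the number higher was near the background. Of the genes given here only Ticam1 and Irf7 kept a call there.

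For each member the 2 protein-coding genes with the most similar profile were taken from 12409 with a mean of at least 1 CPM, by the root mean square difference of mean-centred log2 CPM over the 12 libraries. The group difference was left in, so nearness largely reflects a similar fold change and is no measure of shared control. Distances can also be larger for genes with large fold changes and few Ctrl counts. Nearest to Tlr4 were Zfp106, a zinc finger protein (0.0444), and Cltc, the clathrin heavy chain (0.0522). Nearest to Tlr3 were Mlkl, the effector of necroptosis (0.116), and Lgals9, galectin 9 (0.123). Unc93b1 lay nearest to Ctsc, a lysosomal protease (0.157), and Fxyd5, a membrane protein (0.168), and Tlr13 to March1, a ubiquitin ligase (0.160), and Tnfrsf11a, which encodes RANK (0.326). The nearest profiles to Tlr2 were Apobec1, a cytidine deaminase (0.263), and Fcgr2b, an inhibitory Fc receptor (0.265). For Tlr1 they were Gsap (0.292) and P2ry10b (0.409), for Tlr6 Ccrl2 (0.376) and Otulinl (0.398), for Tlr8 Ncf4 (0.423) and Ctss (0.435), and for Tlr7 Shtn1 (0.443) and P2ry6 (0.461). Tlr9 had the most distant neighbours, Sirpb1a, a myeloid receptor (0.660), and Cd8b1, a chain of CD8 (0.696).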

How the data were processed

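The authors deposited counts per gene, unscaled whole numbers with 1 column per library. The submitters' processing notes name mm10; aligner and counter are not given in the sources used. Among counts of 1 to 20, 66.7% to 69.3% were even in each library, so single counts may not be independent molecules and no counting intervals are given. RNA was poly-T selected and strand was lost, per the labels' protocols. Gene lengths in bases are also as deposited. Members and gene lists were chosen with earlier results of these data known.

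Groups were compared with edgeR 4.0.16 in R 4.3.3 (quasi-likelihood test, robust, TMM, group as the only term, 12 libraries), after edgeR's filter (minimum count 10, minimum total 15), with Benjamini-Hochberg adjustment over 16164 genes. The SE is the absolute log2 fold change over the square root of F. CPM are TMM-scaled, and log2 CPM used a prior count of 2. Alternatives used DESeq2 1.42.0, limma 3.58.1 (voom), other scalings and filters, omitted libraries, a replicate block and the leukocyte score. Exons were taken from GENCODE M21, where all 10 genes had the deposited coordinates. Same-group libraries differed beyond sampling noise (chi-square per degree of freedom of 7.47 or more). Named genes were the members, up to 2 pathway genes per list and direction with the smallest p, the first gene of each marker list, and the nearest profiles; not every marker so chosen is reported here. Tlr11, Ly96, Xist, Ms4a1 and Ly6g were named after their values were seen.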

Additional observations from a re-analysis of the deposited data

Results flagged for a closer look

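In 7 of the 20 groups of 6 libraries looked at (10 genes in 2 groups), 1 library lay far from the others by Dixon's test. Chance would give this in about 1 group of 20 if the groups were independent. Here they were not, because the genes were measured in the same libraries. In all 7 the far library was the highest Ctrl library, Ctrl 5, which also had the highest Ctrl leukocyte score (4.41). Its values were 5.49 CPM for Tlr2, 1.05 CPM for Tlr6, 3.20 CPM for Tlr7, 2.04 CPM for Tlr8, 0.303 CPM for Tlr9, 5.82 CPM for Tlr13 and 40.2 CPM for Unc93b1. Tlr1, Tlr3 and Tlr4 had no such library in either group, and the iKO group had none for any of the 10 genes.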

How the results depend on the processing

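The number of members that rose was 9 or 10 in 21 of 22 alternatives, between 9 and 10 when any 1 library was left out, and 2 with the leukocyte score as covariate; no alternative gave a member that fell. With that covariate 1060 of all tested genes were higher and 1105 lower, against 4037 and 3464 without it, and pathway genes numbered 4 higher and 1 lower. Tlr6 (-0.41) and Cd36 (-0.53) changed direction. Other pathway genes that did so included Ticam2 (-0.97), Ctsl (-0.14), Ctss (-0.08) and Dnase1l3 (-0.006), all called higher without it. Cd14 (-1.72), not called without it, also turned. None of these had a call with the covariate. The number of pathway genes that fell was 4 with library totals only, 4 without a filter on low counts, 1 with a replicate block, 1 without Ctrl 5 and iKO 1, and between 1 and 3 when any 1 library was left out; the cause was not tested. Replicate numbers did not pair the libraries: same-numbered libraries deviated together (correlation over 0.1) in 2 of 6 pairs, and 1 of 6 Ctrl libraries correlated best with its own number. With the replicate block 3489 genes were higher and 2984 lower, and 9 members rose. Log2 fold changes of Tlr7, Tlr8 and Tlr13 were 5.68, 7.62 and 6.60 with limma voom and 5.24, 6.58 and 6.22 with the replicate block. Depth limits Tlr6, Tlr7, Tlr8, Tlr9 and Tlr13 in Ctrl, each with fewer than 3 counts in at least 1 library, where 3 counts stand for 0.0642 to 0.0874 CPM.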

Other observations

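The ratio of Tlr9 counts to Tlr7 counts, which needs no scaling between libraries, was looked at after the values were seen. It was 0.0909 in Ctrl 4, 0.0948 in Ctrl 5 and 0.250 in Ctrl 6, from 3, 11 and 4 Tlr9 counts, and Tlr9 had no counts in the other 3 Ctrl libraries. In iKO it was 0.536 in iKO 1 and between 1.31 and 1.74 in iKO 2 to 6.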
